A study of Homo sapiens with 21 samples.

Results

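Argonaute proteins carry microRNAs to their target transcripts, and PAR-CLIP maps where they touch RNA: cells are fed 4-thiouridine, crosslinked with ultraviolet light, the protein is precipitated and the RNA fragments bound to it are sequenced and grouped into clusters. The regions described here are the clusters that lie in structural RNA, meaning those whose detailed annotation names rRNA, tRNA, snRNA, scRNA or srpRNA. There were 381 of them among 113103 clusters, with 143 of 36812 in the AGO2 list from cyclosporine A (CsA) treated cells, 66 of 19306 in the list from an antibody to all Argonaute proteins and 172 of 56985 in the AGO2 list from vehicle-treated cells.

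The cells were HK-2, an established line of human kidney proximal tubule cells. For AGO2 PAR-CLIP, 2 libraries had 5 µg/mL CsA, an immunosuppressant that can injure the kidney, and 2 had 0.1% ethanol, for 24 h, but the authors deposited 1 list per treatment, so no difference between these lists can be set against replicate error. The all-Argonaute list came from 1 sample whose treatment the labels do not give. All PAR-CLIP cells received 100 µM 4-thiouridine and 365 nm light at 0.15 J/cm2. In parallel, 4 CsA and 4 vehicle libraries of mRNA and the same numbers of miRNA libraries were made after 48 h. These also had 5 µg/mL CsA or 0.1% ethanol.

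Structural RNAs are the most abundant RNAs of a cell. The small (SSU) and large (LSU) subunit rRNAs and 5S rRNA form the ribosome, tRNAs bring amino acids to it, U1, U2 and U5 snRNAs are part of the spliceosome, 7SL is the RNA of the signal recognition particle that guides secreted proteins to the endoplasmic reticulum, and Y RNAs (HY3, HY4) bind the Ro protein. tRNA can be cut into shorter fragments, some of which are known to associate with Argonaute proteins. The genome also holds many copies and fragments of these genes, so the position given to a read need not be where its RNA was made.

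A limit of the lists comes before the values. The detailed annotation was filled in only for chromosomes 1 and 2, and on chromosome 2 only up to its last part, so every member lies there and 83.8% of CsA, 83.5% of all-Argonaute and 83.7% of vehicle clusters could not supply one. Shares are therefore given over the 5958, 3192 and 9281 annotated clusters of the CsA, all-Argonaute and vehicle lists, a choice made after seeing the files. The labels and headers name no unit for the cluster score, so scores serve as shares and ranks within a list and are only set side by side between lists.

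The sequences below, on build hg19 and in the direction of the RNA, are shown so that the parts of each RNA under a cluster can be read: high-scoring clusters of each class (first bases of the longest), the tRNA clusters compared between lists, and a U1 and a tRNA-His cluster that hold the motifs searched. In tRNAs the capitals mark the A box and the B box, the internal promoter elements of tRNA genes, as found by the letter patterns given with the tRNA results. In U1 they mark the site where the ring of Sm proteins binds.

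LSU rRNA, first bases of the CsA cluster, minus strand, chr1:91853090-91853149: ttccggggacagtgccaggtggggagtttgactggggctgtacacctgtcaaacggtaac
SSU rRNA, first bases of the vehicle cluster, minus strand, chr2:133012737-133012796: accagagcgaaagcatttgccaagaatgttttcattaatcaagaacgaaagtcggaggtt
5S rRNA, CsA, plus strand, chr2:115695326-115695384: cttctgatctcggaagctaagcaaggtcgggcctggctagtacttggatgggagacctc
5S rRNA, vehicle, minus strand, chr1:78560506-78560540: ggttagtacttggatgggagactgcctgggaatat
tRNA-Cys-TGY, CsA, minus strand, chr1:93981832-93981906: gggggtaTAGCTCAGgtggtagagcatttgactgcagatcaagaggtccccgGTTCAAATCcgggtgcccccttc
tRNA-Cys-TGY, vehicle, minus strand, chr1:93981870-93981906: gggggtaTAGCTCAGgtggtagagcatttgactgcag
tRNA-Cys-TGY, vehicle, second cluster, minus strand, chr1:93981833-93981866: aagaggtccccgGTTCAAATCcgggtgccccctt
tRNA-Val-GTY, CsA, minus strand, chr2:47507894-47507919: agtggttatcacgttcgcctgacaca
tRNA-Lys-AAA, vehicle, minus strand, chr1:204476157-204476230: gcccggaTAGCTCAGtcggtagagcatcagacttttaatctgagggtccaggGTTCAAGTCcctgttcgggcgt
tRNA-His-CAY, CsA, plus strand, chr1:146544774-146544844: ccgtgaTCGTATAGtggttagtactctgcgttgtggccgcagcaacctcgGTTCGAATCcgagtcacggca
U3, CsA, plus strand, chr2:219484560-219484590: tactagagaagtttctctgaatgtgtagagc
U1, CsA, plus strand, chr1:17222577-17222639: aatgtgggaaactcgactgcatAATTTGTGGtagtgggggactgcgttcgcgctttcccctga
HY4, CsA, plus strand, chr2:201237895-201237912: ctacgttggtctgatggt
HY4, vehicle, minus strand, chr2:128556542-128556571: gctggtccgatggtagtgggttatcagaac
7SL, CsA, plus strand, chr2:233514766-233514793: aggtcaaaactcccgtgctggtcagcag
7SL, vehicle, minus strand, chr1:28358595-28358615: tcctgggctgtagtgcgctat

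Structural RNA made up few of the clusters and much of the score. Members were 2.40% of annotated clusters in the CsA list (95% Wilson interval 2.04% to 2.82%), 2.07% in the all-Argonaute list (1.63% to 2.62%) and 1.85% in the vehicle list (1.60% to 2.15%). These intervals cover counting error only, and they overlap between the lists. The same clusters held 76.3% of the annotated score in the CsA list, 48.7% in the all-Argonaute list and 64.2% in the vehicle list. All 10 of the highest-scoring annotated clusters were members in the CsA list, against 8 of 10 in the all-Argonaute list and all 10 in the vehicle list. The median member scored 494 in the CsA list, 1297.5 in the all-Argonaute list and 277.5 in the vehicle list, where the other annotated clusters had medians of 77, 46 and 44 in the same order of lists. Members were also wider, with median widths of 49 bases in the CsA list, 49 in the all-Argonaute list and 43 in the vehicle list, while the other annotated clusters had medians of 20, 19 and 20 bases.

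rRNA supplied nearly all of that score. It had 71 clusters and 97.6% of the member score in the CsA list, 50 clusters and 99.5% in the all-Argonaute list, and 77 clusters and 97.0% in the vehicle list. tRNA had almost as many clusters in the AGO2 lists, 56 in CsA and 64 in vehicle, but 2.37% and 2.86% of the member score there, and in the all-Argonaute list it had 9 clusters with 0.509%. tRNA thus made up 39.2% of members in the CsA list, 13.6% in the all-Argonaute list and 37.2% in the vehicle list. The remaining classes were small: snRNA had 9 CsA, 3 all-Argonaute and 17 vehicle clusters, 7SL had 3, 1 and 5, and Y RNA had 1, 1 and 2. A further 3 CsA, 2 all-Argonaute and 7 vehicle members were MamSINE1, a repeat derived from tRNA that matched through its family name.

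**Figure D1:**
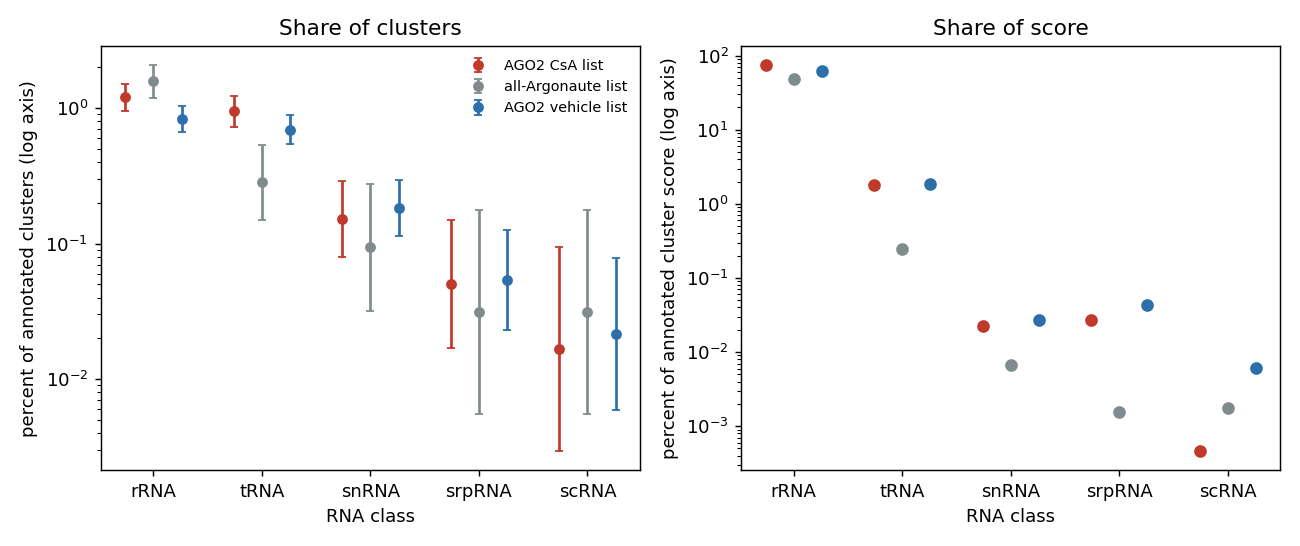
Percent of annotated clusters (left, with 95% Wilson intervals) and percent of annotated cluster score (right) by RNA class, on log axes, for the CsA, all-Argonaute and vehicle lists. rRNA and tRNA lie close together by clusters in the AGO2 lists, while by score rRNA stands at 74.4% in the CsA list, 48.4% in the all-Argonaute list and 62.3% in the vehicle list, and tRNA below 2% in each.

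The rRNA score sat in a handful of places. Members within 5000 bases of each other and of one class were joined into 157 loci, and 3 rRNA loci held 73.6% of the member score in the CsA list, 78.3% in the all-Argonaute list and 73.8% in the vehicle list. The first was a single LSU cluster in an intron of HFM1, a meiotic DNA helicase gene, at chr1:91852779-91853149. It scored 1950000 in the CsA list, 296778 in the all-Argonaute list and 1066380 in the vehicle list, the highest member of each. The second was a nearly full run of SSU clusters over 1566 bases in ANKRD30BL, chr2:133011918-133013483, with 12 CsA, 14 all-Argonaute and 9 vehicle clusters that held 26.5%, 29.9% and 27.0% of the member score in those lists. Of the 12 CsA clusters 1, scoring 52, lay on the opposite strand. The third was an LSU run of 2979 bases outside genes, chr2:133036258-133039236, with 20 CsA, 19 all-Argonaute and 20 vehicle clusters and 16.7%, 16.6% and 17.5% of the member score.

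Within these runs the clusters of the 2 AGO2 lists lay over most of the same stretches, and the all-Argonaute clusters covered less of the LSU run. There the clusters covered 1851 bases in the CsA list, 1275 in the all-Argonaute list and 1818 in the vehicle list. The stretch chr2:133037473-133037605 scored 96469 in the CsA list and 65970 in the vehicle list and had no all-Argonaute member. In the SSU run the cluster at chr2:133012637-133012799 scored 409157 in the CsA list, 51133 in the all-Argonaute list and 266704 in the vehicle list, and was the highest vehicle cluster of the run. The highest CsA cluster of the run, 464627 over 418 bases, spanned an interval that the vehicle list divided into clusters of 170185 and 52105. The highest all-Argonaute cluster of the run scored 68202 over 182 bases. In the LSU run a cluster of 271324 in the CsA list lay over clusters of 23378 in the all-Argonaute list and 167863 in the vehicle list, while another part of the run scored 112 in the CsA list, 60 in the all-Argonaute list and 123 in the vehicle list.

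**Figure D2:**
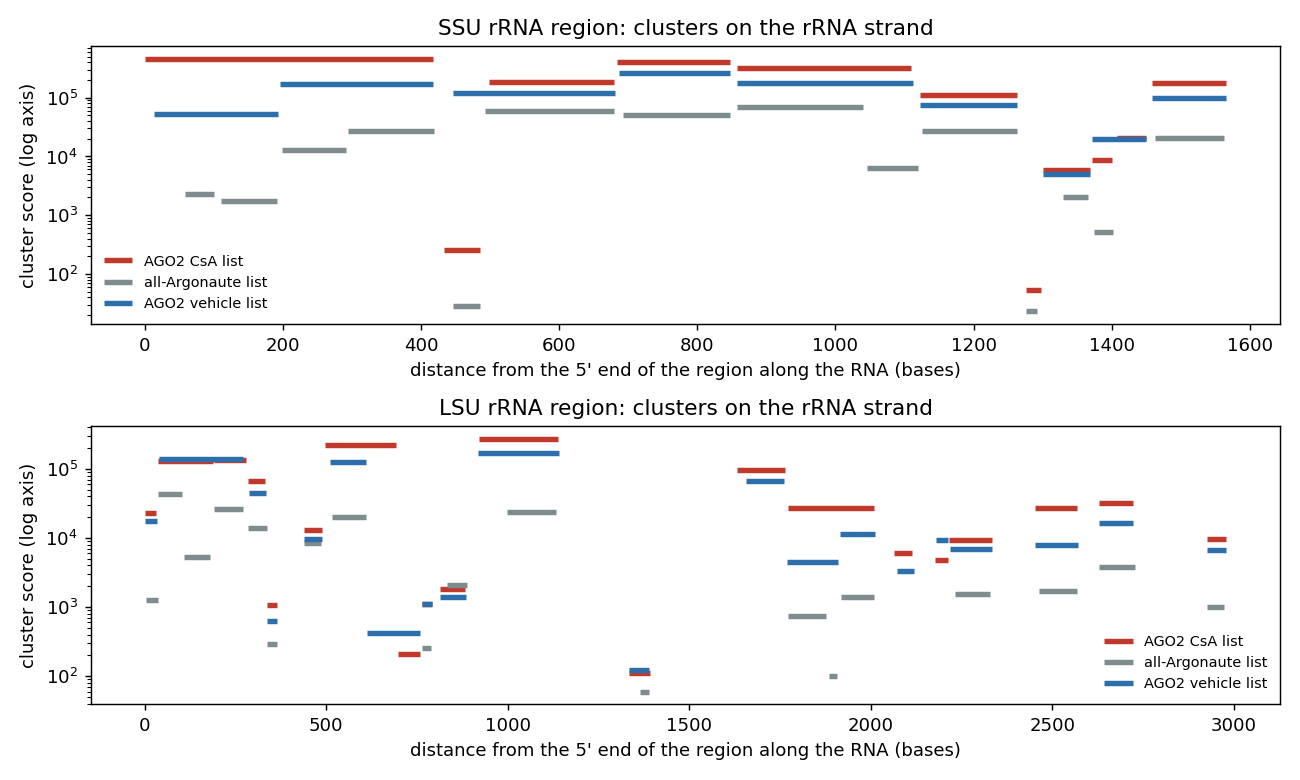
Each bar is a cluster, drawn from its first to its last base along the RNA (x, bases from the 5′ end of the region) at its score (y, log axis), in the SSU region of ANKRD30BL (top) and the intergenic LSU region (bottom), for the CsA, all-Argonaute and vehicle lists. The AGO2 lists cover most of the same stretches, and the all-Argonaute list covers less of the LSU region. The LSU region has a stretch with scores of 112, 60 and 123 in the CsA, all-Argonaute and vehicle lists not far from clusters of 271324, 23378 and 167863.

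Smaller LSU pieces followed in introns of other genes. A cluster in RYR2, which encodes a calcium release channel, scored 586016 in the CsA list, 41713 in the all-Argonaute list and 251496 in the vehicle list. The cluster in NOTCH2NL, a partial copy of a Notch gene, scored 320563 in the CsA list, 52709 in the all-Argonaute list and 197353 in the vehicle list. The one in NOTCH2, a signalling receptor gene, scored 187540 in the CsA list, 23969 in the all-Argonaute list and 110960 in the vehicle list. The 5 highest-scoring regions found by position in all 3 lists were those in HFM1, RYR2 and NOTCH2NL and the SSU stretches chr2:133012637-133012799 and chr2:133013065-133013483. 5S rRNA differed from SSU and LSU: its 14 CsA, 3 all-Argonaute and 18 vehicle clusters had medians of 112, 25 and 77.5, and it held 0.137% of the member score in the CsA list, 0.0815% in the all-Argonaute list and 0.192% in the vehicle list.

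Of intronic rRNA clusters whose host gene's strand was known, 21 of 31 in the CsA list, 18 of 22 in the all-Argonaute list and 18 of 32 in the vehicle list lay on the strand of the host gene. The other intronic clusters did so in 54.5%, 51.6% and 53.8% of cases in the CsA, all-Argonaute and vehicle lists. The SSU run in ANKRD30BL alone supplied 12 CsA, 14 all-Argonaute and 9 vehicle intronic rRNA clusters. The rRNA counts are therefore not counts of separate places, and no strand share without this run is given.

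tRNA clusters carried names of 28 anticodon families for 17 amino acids, with 24 families in the CsA list, 5 in the all-Argonaute list and 23 in the vehicle list. tRNA-Glu was the most frequent amino acid, with 9 CsA, 3 all-Argonaute and 11 vehicle clusters, followed by tRNA-Lys with 5, 3 and 7 and tRNA-Val with 7, 0 and 5. The score was uneven. The tRNA-Cys-TGY gene in an intron of FNBP1L held 25.4% of the tRNA score in the CsA list and 29.3% in the vehicle list and had no all-Argonaute cluster. tRNA-Glu held 22.0% in the CsA list, 81.1% in the all-Argonaute list and 23.5% in the vehicle list. tRNA-His-CAY had 5 CsA clusters scoring between 111 and 5026 and 4 vehicle clusters scoring between 1264 and 3859. The pair of tRNA-Lys-AAA genes on opposite strands of chromosome 1 scored 7597 and 7609 in the CsA list, 109 and 67 in the all-Argonaute list, and 5498 and 5593 in the vehicle list. The tRNA-Lys-AAA sequence printed above for the vehicle list was the same in the CsA list.

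**Figure D3:**
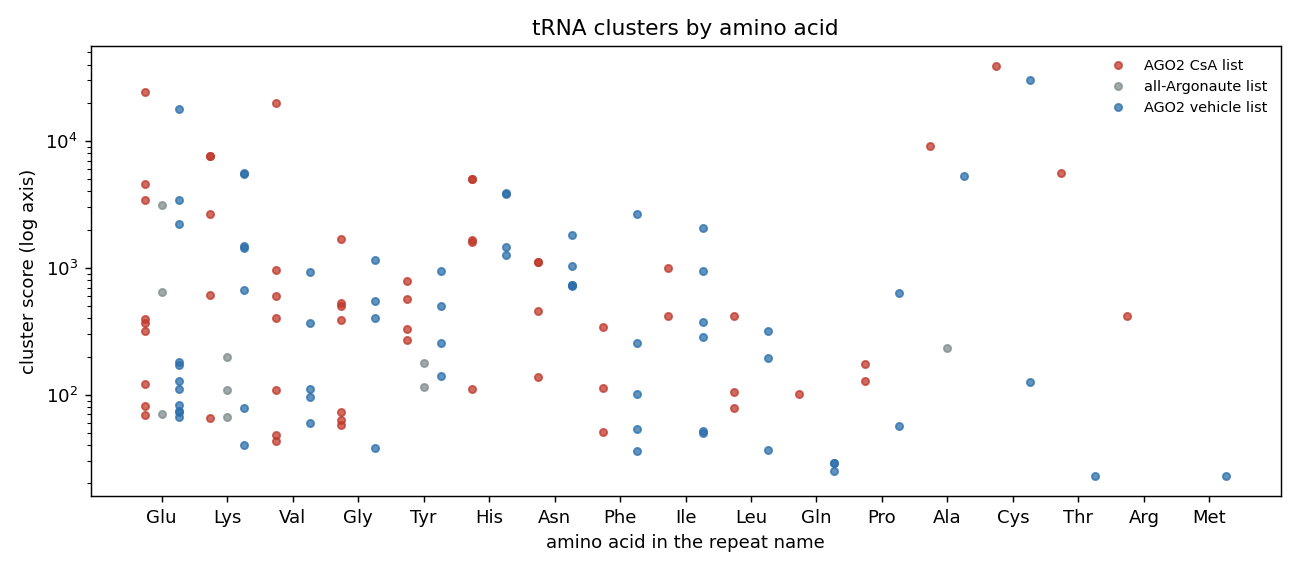
Each point is a tRNA cluster, placed by the amino acid of its repeat name (x) and its score (y, log axis) in the CsA, all-Argonaute and vehicle lists. tRNA-Cys, tRNA-Glu and, in the CsA list, tRNA-Val hold the highest points, and the all-Argonaute list has points in 4 amino acids.

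The deposited AGO2 sequences show which part of the tRNA each cluster covered. The patterns fixed at first, GTTCGANNC for the B box and TNGCNNAG for the A box, missed many tRNAs, so the wider GTTCNANNC and TNGNNNAG, which include them, were added after seeing the data. A match is a run of letters and not a tested site. On the strand of the RNA, the wider A box lay in 76.8% of CsA and 73.4% of vehicle tRNA clusters, against 10.6% and 9.32% of the other annotated clusters, which are shorter. The wider B box lay in 46.4% of CsA and 39.1% of vehicle tRNA clusters, against 0.843% and 0.648% of the others. rRNA clusters, with median widths of 52 bases in CsA and 51 in vehicle, held the wider A box in 38.0% and 37.7%. They held the wider B box in 2.82% and 2.60%, so the A box pattern alone is not particular to tRNA. On the opposite strand the wider A box lay in 1.79% of CsA and 0% of vehicle tRNA clusters, and the wider B box in 0% and 1.56%. The fixed patterns gave 30.4% and 34.4% for the A box and 35.7% and 29.7% for the B box in CsA and vehicle tRNA clusters, against 2.24% and 2.01%, and 0.533% and 0.406%, of the other clusters. In rRNA clusters the fixed A box lay in 12.7% of CsA and 14.3% of vehicle ones, and the fixed B box in 0% of both.

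Clusters fell into short ones at the 5′ side of the tRNA and ones that spanned it. An A box without a B box was found in 23 of 56 CsA clusters, with a median width of 34 bases, and in 30 of 64 vehicle clusters, also with a median of 34. Both boxes lay in 20 CsA clusters, with a median width of 73 bases, and in 17 vehicle clusters, with a median of 75. A B box alone was found in 6 CsA and 8 vehicle clusters, and neither in 7 and 9. Of the clusters with an A box, 37 of 43 in the CsA list and 41 of 47 in the vehicle list began 4 to 10 bases before it, with a median of 7 in both lists, which is about where the mature tRNA begins. Clusters with both boxes held 76.7% of the tRNA score in the CsA list and 50.3% in the vehicle list. That gap rests on tRNA-Cys-TGY: without it the values were 68.7% and 71.1%.

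At tRNA-Cys-TGY the CsA list had 1 cluster of 75 bases scoring 38666. The vehicle list had 1 of 37 bases over the 5′ part, scoring 30412, and 1 of 34 bases over the 3′ part, scoring 126. The 9 all-Argonaute tRNA clusters were 16 to 72 bases wide, and 2 of them, the highest-scoring, had the same first and last base as the vehicle cluster there. Others were shorter. The clusters that overlapped the tRNA-Lys-AAA pair on chromosome 1 were 27 and 18 bases wide, and both ended at the same 3′ base as the 74-base vehicle clusters. The tRNA-Ala-GCG cluster was 33 bases wide and began 4 bases inside the 75-base vehicle cluster.

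**Figure D4:**
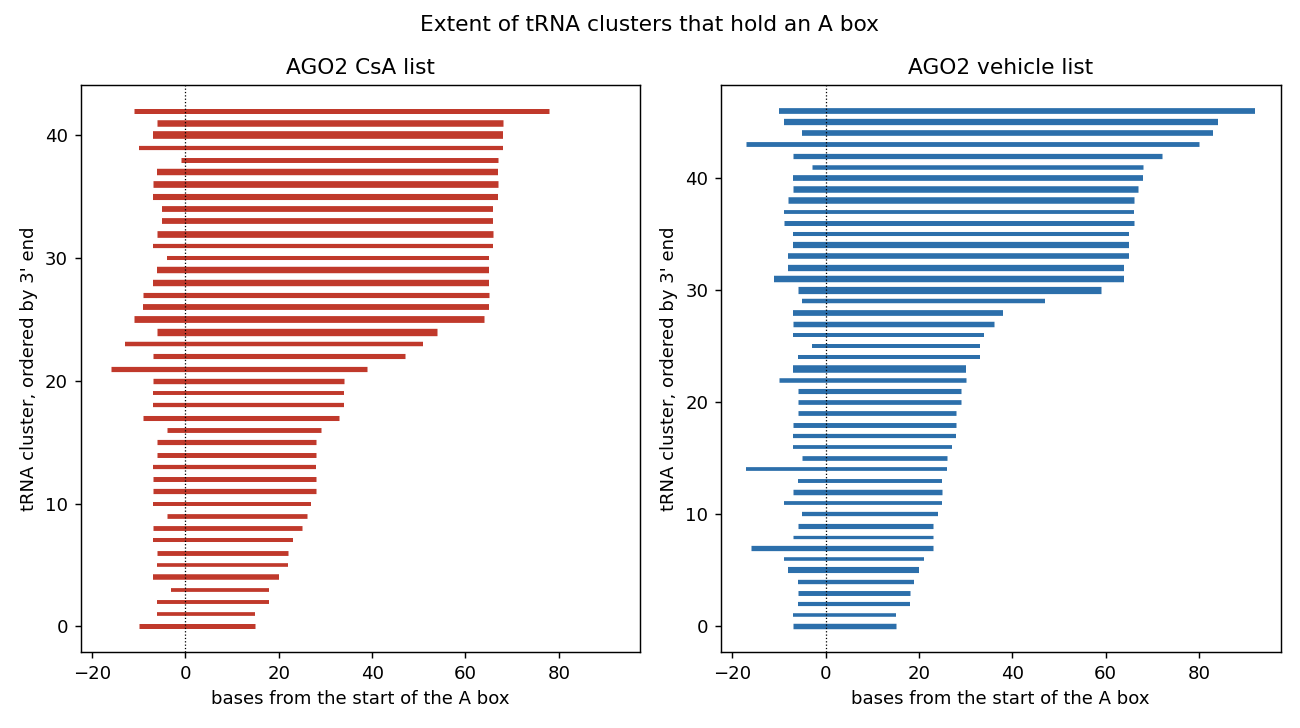
Each line is a tRNA cluster with an A box, drawn from its first to its last base relative to the start of the A box (x, bases) and ordered by its 3′ end (y), in the CsA list (left) and the vehicle list (right), with thicker lines for higher scores. Most lines begin about 7 bases before the box, and their 3′ ends form a short set and a long set in both lists.

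snRNA, 7SL and Y RNA clusters scored far below rRNA. The highest snRNA cluster of the CsA list was U3, which guides rRNA processing and is a snoRNA although the annotation calls it snRNA, with 517 and no overlapping vehicle cluster. U2 in an intron of ERO1B had clusters at different places, 426 in the CsA list and 186 in the vehicle list, which did not overlap. U1 had 4 CsA clusters of at most 90, 3 all-Argonaute clusters of at most 54 and 8 vehicle clusters of at most 178. The letter pattern searched for the Sm site, AATTTNTGG, lay in 1 of 9 CsA and 2 of 17 vehicle snRNA clusters. Those clusters include U2, U3 and U5, and whether the pattern fits these RNAs was not checked. The pattern lay in 0.0516% and 0.0439% of the other annotated CsA and vehicle clusters. On the opposite strand it lay in none of the snRNA clusters. 7SL in an intron of EFHD1 scored 1497 in the CsA list and 822 in the vehicle list, and 7SL in EYA3, with the same 21 bases in both lists, scored 333 in the CsA list and 1064 in the vehicle list. The single CsA Y RNA cluster, HY4, scored 39, the all-Argonaute one 34 and the vehicle ones 321 and 21, and none of these overlapped another list.

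Structural RNA clusters recurred between lists more often than the average cluster, as high-scoring clusters of any kind did. Of CsA members, 112 of 143 (78.3%, 95% Wilson interval 70.9% to 84.3%) overlapped a vehicle cluster by at least 1 base on the same strand, beside 49.3% of all annotated CsA clusters. Of vehicle members, 112 of 172 (65.1%, 57.7% to 71.8%) overlapped a CsA cluster, beside 31.6% of all. Of all-Argonaute members, 60 of 66 (90.9%, 81.6% to 95.8%) overlapped a vehicle cluster, beside 45.7% of all. Score moved with this. Among other clusters scoring at or above the median member, 84.1% of 597 in the CsA list, 84.3% of 51 in the all-Argonaute list and 77.4% of 985 in the vehicle list were found in the list with which the members were compared. Annotated clusters were also split by score into 4 parts. In the CsA list, from the highest part to the lowest, 89.9%, 76.0%, 28.6% and 0% of members were found in the vehicle list, against 81.5%, 57.9%, 34.7% and 23.2% of other clusters, with 14 and 5 members in the lower parts. In the all-Argonaute list these shares were 100.0%, 71.4% and 33.3% of members and, in the lowest part, 3 of 5 members, against 75.6%, 47.2%, 32.5% and 26.1% of others, with 3 members in the third part. In the vehicle list 78.4%, 40.0%, 42.1% and 14.3% of members were found in the CsA list, against 67.5%, 30.4%, 17.6% and 10.7% of others. The member share was the higher one in every part except the 2 lower parts of the CsA list. Several parts were small, with 3 all-Argonaute members in the third part and 19 and 7 vehicle members in the lower parts. Members were also wider, with median widths of 49, 49 and 43 bases in the CsA, all-Argonaute and vehicle lists. The other clusters had medians of 20, 19 and 20 bases. The parts of score and of width in these shares were not tested. Overlapping members held 99.4% of the member score in the CsA list, and 99.1% in the vehicle list.

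Joined by position, the members formed 204 regions, of which 46 were in all 3 lists. rRNA had 35 of its 85 regions in all 3 lists, tRNA 9 of 80, snRNA 2 of 20, and 7SL and Y RNA 0 of 6 and 0 of 4. All 9 all-Argonaute tRNA clusters lay in regions that both AGO2 lists also held. Over the 108 regions with both CsA and vehicle members, the highest scores had a Spearman correlation of 0.96, given as a description because copies of one RNA can share reads and sequence. Over the 39 tRNA regions among them it was also 0.96. For all-Argonaute and vehicle members it was 0.94 over 50 regions of all classes, and 0.25 over the 9 tRNA regions, a small number.

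The highest CsA members without a vehicle cluster at the same place were tRNA-Val-GTY at chr2:47507894-47507919 with 19828, 5S rRNA in DPP10 with 6435 and tRNA-Thr-ACA at chr1:222638348-222638421 with 5639. The highest vehicle members without a CsA cluster were LSU rRNA in PKP4 with 7716, 5S rRNA in GIPC2 with 5475 and tRNA-Phe-TTY in SFXN5 with 2672. Some members without overlap shared a stretch of sequence with a cluster of the other list at another place. Of the 26 such CsA members at least 20 bases wide, 16 shared a run of 20 bases with some vehicle cluster and 10 shared none. Of 55 vehicle members 28 shared one with some CsA cluster and 27 shared none. No such share for clusters other than members is given beside these. For tRNA-Thr-ACA the best such vehicle cluster was on chromosome 14 and scored 1230, and for the DPP10 5S cluster it was on chromosome 11 and scored 5479. tRNA-Val-GTY shared a single run, with a vehicle cluster on chromosome 5 that scored 1989, and tRNA-Phe-TTY in SFXN5 shared none.

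Sites for abundant microRNAs were rare in members and in other clusters alike. The 5 most abundant miRNAs of the small RNA libraries, with the seed (bases 2 to 8) in capitals and sequences from RefSeq, are shown because their seeds gave the sites searched.

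hsa-miR-21-5p: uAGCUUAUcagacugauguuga
hsa-miR-30a-5p: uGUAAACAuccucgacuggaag
hsa-let-7i-5p: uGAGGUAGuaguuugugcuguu
hsa-miR-26a-5p: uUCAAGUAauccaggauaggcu
hsa-let-7f-5p: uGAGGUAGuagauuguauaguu

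Both let-7 members share a seed, which leaves 4 distinct sites. On the strand of the RNA 1 of 143 CsA members (0.699%) and 1 of 172 vehicle members (0.581%) held any of them, both in rRNA, against 0.430% and 0.340% of the other annotated clusters. By length, this was 1 site in 9616 bases of CsA members and 1 in 10701 bases of vehicle members, against 25 sites in 120903 bases and 31 in 188293 bases of the other clusters. None of the 56 CsA and 64 vehicle tRNA clusters held one, and neither did any of the 76 CsA and 118 vehicle clusters annotated as 3′ UTR. Members were 24.6% T and 52.7% GC in both AGO2 lists, while the other clusters were 27.3% T and 47.8% GC in the CsA list and 26.9% T and 48.5% GC in the vehicle list.

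No miRNA of the table shared 16 bases with a member: 2281 of 2586 names had a RefSeq sequence. With a run of 14 bases, 4 did. No count for other clusters is given beside it, so these 4 are not a result about members. hsa-miR-4443 shares such a run with tRNA-Leu-CTG; its counts were 40, 19, 20 and 18 in CsA libraries and 8, 7, 10 and 6 in vehicle libraries. The groups did not overlap, and it was higher in CsA by 1.44 on the log2 scale (SE 0.29, edgeR quasi-likelihood adjusted p = 0.00468), where 4.89% of the 470 miRNAs tested were called higher, 6.38% lower and 11.3% either way. hsa-miR-1246, which shares a run with U2, averaged 11.2 ± 1.29 CPM (counts scaled to the effective library size) in CsA and 15.3 ± 2.72 in vehicle libraries (SD, n = 4 each) and was not called (log2 fold change -0.47, edgeR adjusted p = 0.0844). hsa-miR-4448 and hsa-miR-4454, which share runs with tRNA-Pro and tRNA-His, had no counts.

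The mRNA libraries, made from polyadenylated RNA per the labels, held few reads of the structural RNAs themselves. Of 17 structural RNA genes in the table none had enough counts to be tested, 7 had none in any of the 8 libraries, and the highest count was 14, for RNU11, the RNA of a minor spliceosome particle. RMRP, the RNA of the ribonuclease MRP, had 8, 9, 7 and 6 counts in CsA and 9, 9, 7 and 8 in vehicle libraries. Without a filter, edgeR called 0 of the 10 genes with any count, with 0 at an unadjusted p under 0.05, and DESeq2 gave 0 and 0. TRNAU1AP matched by its name but encodes a protein and was left out.

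Genes for the proteins that make or bind these RNAs were called in 58.8% of cases, beside 66.9% of all genes, more of them higher than lower in CsA. Over 12855 genes, edgeR called 33.3% higher and 33.5% lower in CsA, 66.9% in all. Of 85 tested partner genes, 33 were higher, 17 lower and 35 not called, with a median log2 fold change of 0.09 beside -0.00 over all genes. By list, the share called was 87.5% for the signal recognition particle, 63.6% for RNA polymerase III and 54.5% for tRNA maturation and cleavage. It was 66.7% for Ro and La and 48.1% for Sm and snRNP genes, beside the same 66.9% of all genes. Of the 50 calls, 11 missed the threshold with DESeq2, without the filter or without some library, and 6 of these were in the Sm and snRNP list. In the same libraries the summed level of 6 stromal markers, 4 of them with at least 10 counts in some library and COL1A2 at 0, was 108 to 127 CPM in CsA and 355 to 403 CPM in vehicle. That of 13 tubule markers, 7 of them with at least 10 counts, was 2146 to 2274 CPM in CsA and 1823 to 1896 CPM in vehicle. Of 4 endothelial markers PECAM1 and KDR were at 0, and the sum was at most 0.256 CPM in CsA and 0.367 CPM in vehicle. The part of these shifts in the partner genes was not tested.

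Signal recognition particle genes were mostly higher: 6 of 8 rose, 1 fell and 1 was not called, with a median log2 fold change of 0.51. The gene that fell, SRP9, had a log2 fold change of -0.25 (edgeR adjusted p = 0.0223), and without CsA replicate 1, vehicle replicate 3 or vehicle replicate 4 the edgeR adjusted p was 0.293, 0.0597 and 0.113. SRP72, a protein of the particle, had 155, 144, 137 and 143 CPM in CsA libraries, against 75.2, 79.7, 82.7 and 92.3 CPM in vehicle libraries. The groups did not overlap. SRP72 averaged 145 ± 7.33 CPM in CsA and 82.5 ± 7.24 in vehicle libraries (SD, n = 4 each), a log2 fold change of 0.81 (SE 0.07, edgeR adjusted p = 4.63e-16). SRPR and SRPRB, the subunits of its receptor, rose on the log2 scale by 0.58 and 0.55, and SRP19 by 0.78 (edgeR adjusted p = 2.89e-12, 1.17e-09 and 4.62e-08).

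Of 22 genes for RNA polymerase III, which transcribes tRNA, 5S, 7SL and Y RNA, and its factors, 11 rose, 3 fell and 8 were not called, with a median log2 fold change of 0.28. The polymerase subunit POLR3D had 52.1, 52.9, 49.4 and 47.1 CPM in CsA libraries, against 21.4, 18.7, 20.7 and 19.7 CPM in vehicle libraries. The groups did not overlap. POLR3D averaged 50.4 ± 2.65 CPM in CsA and 20.1 ± 1.18 in vehicle libraries (SD, n = 4 each), a log2 fold change of 1.31 (SE 0.09, edgeR adjusted p = 8.32e-19). POLR3A, the largest subunit, rose by 0.95 on the log2 scale, and the transcription factor subunits GTF3C4 and BDP1 by 0.79 and 0.63 (edgeR adjusted p = 1.51e-19, 4.78e-13 and 2.97e-10). MAF1, a repressor of the polymerase, was not called, with 65.9 ± 2.54 CPM in CsA and 62.3 ± 4.58 in vehicle libraries.

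tRNA maturation and cleavage had 8 of 22 genes higher, 4 lower and 10 not called, with a median log2 fold change of 0.10. XPOT, which exports tRNA from the nucleus, had between 201 and 206 CPM in the 4 CsA libraries, against 98.6, 96.6, 95.4 and 85.6 CPM in vehicle libraries. The groups did not overlap. XPOT averaged 204 ± 2.09 CPM in CsA and 94.1 ± 5.79 in vehicle libraries (SD, n = 4 each), a log2 fold change of 1.10 (SE 0.06, edgeR adjusted p = 3.82e-23). DICER1, which cuts miRNA precursors, rose by 0.89 on the log2 scale, the tRNA methyltransferase gene NSUN2 by 0.51, and RNH1, a ribonuclease inhibitor that binds angiogenin, by 0.55 (edgeR adjusted p = 1.73e-18, 1.38e-10 and 2.12e-10). ANG, angiogenin, a ribonuclease that cuts tRNA in the anticodon loop, was not called, with 5.12 ± 1.05 CPM in CsA and 5.80 ± 2.19 in vehicle libraries.

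In the Ro and La list 3 of 6 genes rose, 1 fell and 2 were not called, with a median log2 fold change of 0.28. TROVE2, the Ro protein, had 41.3, 40.7, 38.2 and 45.3 CPM in CsA libraries, against between 15.2 and 19.9 CPM in the 4 vehicle libraries. The groups did not overlap. TROVE2 averaged 41.4 ± 2.96 CPM in CsA and 18.0 ± 2.01 in vehicle libraries (SD, n = 4 each), a log2 fold change of 1.18 (SE 0.10, edgeR adjusted p = 1.32e-15). LARP1 and LARP4, La-related proteins, rose on the log2 scale by 0.57 and 0.40, and MEPCE, which caps 7SK RNA, fell by 0.56 (edgeR adjusted p = 5.97e-13, 1.23e-05 and 4.93e-09). SSB, the La protein, was not called. The Sm and snRNP list had 5 of 27 genes higher, 8 lower and 14 not called, with a median log2 fold change of -0.01. Its smallest p-values were those of SART3, which helps reassemble spliceosomal particles, higher by 0.41 on the log2 scale, the minor spliceosome protein SNRNP35 with a log2 fold change of -0.73, GEMIN5, which delivers snRNAs for Sm ring assembly, higher by 0.57, and the U5 particle protein SNRNP40, higher by 0.40 (edgeR adjusted p = 3.91e-07, 8.24e-06, 1.92e-05 and 0.000123).

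**Figure D5:**
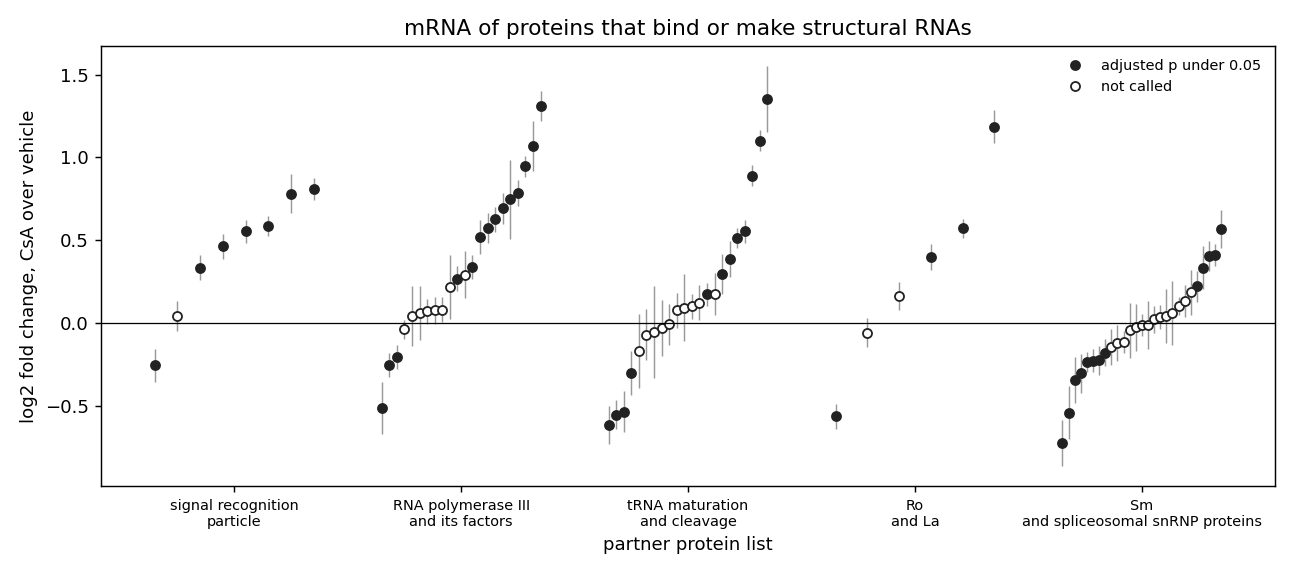
Each point is a gene, with its log2 fold change of mRNA counts, CsA over vehicle (y; bars are the SE, n = 4 each), grouped by partner list (x); filled points passed edgeR's adjusted p of 0.05. The signal recognition particle list lies mostly above 0 with a median of 0.51, and the Sm and snRNP list is spread around a median of -0.01.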

How the data were processed

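The 3 PAR-CLIP lists give, per the file headers, each cluster's position, strand, score, annotation, detailed annotation and sequence; the score is the authors' deposited value, 1 list per group, and no source names its caller or unit. Per the submitters' processing notes the build was hg19; these notes also name DESeq2, HTSeq, TopHat, Bowtie, cutadapt and CASAVA 1.8.2, without roles. Starts were taken as counted from 0, since the sequence length equals end minus start in every AGO2 cluster, and are printed from 1. This held for only 2692 of 19306 all-Argonaute clusters, whose sequences were left out.

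Members were rows whose detailed annotation contains rRNA, tRNA, snRNA, scRNA or srpRNA. The members, gene lists and tests were chosen with earlier results of these data known. Overlap was computed with bedtools 2.31.1 (1 base, same strand). The authors deposited raw counts per gene and per mature miRNA, with totals of 3965431 to 7041604 for mRNA and 6664231 to 9184278 for miRNA libraries. They were tested with edgeR 4.0.16 (quasi-likelihood, filterByExpr, TMM, Benjamini-Hochberg adjusted p under 0.05; SE from the fold change and F), without a replicate block; DESeq2 1.42.0 was an alternative. The labels do not say whether libraries are separate cultures; p-values then cover only the spread between libraries, which may be technical. Replicate pairs differed by more than sampling noise, with chi-square per degree of freedom of at least 1.27.

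Named were the 3 highest clusters of each class and list, the 5 highest in all 3 lists, the 3 highest of each AGO2 list without overlap, and 4 genes per partner list by p; MAF1, ANG, SRP9, SSB, NOTCH2, RMRP and RNU11, and tRNA-His, tRNA-Ala and tRNA-Lys beyond these, were chosen after their values were seen. A few clusters and markers that this rule or the marker lists cover are not reported here.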

Additional observations from a re-analysis of the deposited data

Results flagged for a closer look

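Clusters without a detailed annotation lay on chromosomes other than 1 and 2 and on the last part of chromosome 2. Among them, 287 CsA and 320 vehicle clusters shared a run of 20 bases with a structural RNA member of the same list. They were flagged because they carry signal outside the regions the annotation could name. They made up 0.930% of the CsA and 0.671% of the vehicle clusters without a detailed annotation, and held 46.0% and 34.1% of the score of those clusters. Most of that score was rRNA, with 137 CsA and 143 vehicle clusters, and tRNA runs were found in 127 and 144. With the members and the annotated sharing clusters of chromosomes 1 and 2, the total was 454 CsA clusters with 53.7% of the score of the list, and 516 vehicle clusters with 41.1%.

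Among 44 groups of 4 libraries screened for the named genes and miRNAs, 2 had a library far from the others, and chance flags about 1 group in 20. SNRNP35 had 7.17 CPM in 1 CsA library, against 12.7 to 13.1 in the other CsA libraries. hsa-miR-1246 had 19.4 CPM in 1 vehicle library, against 13.5 to 14.5 in the other vehicle libraries. Without that library its edgeR adjusted p was 0.252, beside 0.0844 with all libraries and 0.0766 to 0.222 without any other 1 library.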

How the results depend on the processing

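Of 90 alternatives, 23 set a count of 0 beside 0 and say little about stability. Of the other 67, 42 were labelled as staying near the values reported and 25 as moved. Staying near did not mean equal: 38 called miRNAs without vehicle replicate 1, beside 53 with all libraries, counted as staying. So did 42 partner genes called with DESeq2, beside 50 with edgeR. The share of clusters was 4.14% in CsA, 3.51% in all-Argonaute and 3.11% in vehicle among clusters at or above the median score, and 0.388% in CsA, 0.342% in all-Argonaute and 0.302% in vehicle over whole lists, a denominator tried after seeing the data. With clusters within 50 bases merged it was 2.05% in CsA, 1.39% in all-Argonaute and 1.63% in vehicle. The share of score was 69.1% in CsA, 39.3% in all-Argonaute and 55.9% in vehicle without the highest-scoring cluster, 3.62% in CsA, 3.54% in all-Argonaute and 2.86% in vehicle on the log2(score + 1) scale, 7.28% in CsA, 0.510% in all-Argonaute and 5.10% in vehicle without rRNA clusters, and 18.6% in CsA, 13.0% in all-Argonaute and 14.4% in vehicle over whole lists. By repeat name instead of position, 93.7% of CsA members, 100.0% of all-Argonaute members and 95.9% of vehicle members were found in the other list. The names LSU, SSU, 5S, U1 and 7SL occur in all 3 lists. Every member with such a name counts as found wherever it lies, so this alternative could hardly fail. The cause of these moves was not tested beyond what each alternative leaves out.

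Leaving out 1 library at a time gave 8181 to 8593 called genes (8597 with all), 43 to 48 called partner genes (50) and 29 to 58 called miRNAs (53), the lowest without vehicle replicate 3. No structural RNA gene passed the filter and no miRNA shared 16 bases, so these had no call to lose. The replicate block gave 8486 genes, 48 partner genes and 92 miRNAs, hsa-miR-1246 among them (edgeR adjusted p = 0.0289); correlations of same-numbered libraries' deviations were -0.08 to 0.03 for mRNA and 0.04, 0.34, -0.06 and 0.15 for miRNA. For miRNA 2 of 4 pairs correlated best with their own number, but not every pair was over 0.1, so the numbers were not taken as pairs. With a shared run of 14 bases 1 miRNA was called. The depth of the PAR-CLIP lists is unknown.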
